A study of Mus musculus with 6 samples.

Results

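Fibroblast growth factor (FGF) ligands and receptors were followed in RNA-seq of mouse uterine stromal cells that lack or carry Pbrm1. The set was listed by gene symbol, with no threshold on expression, as 6 ligands (Fgf1, Fgf2, Fgf7, Fgf9, Fgf10 and Fgf18) and 4 receptors (Fgfr1, Fgfr2, Fgfr3 and Fgfrl1). It makes up 10 of the 54232 genes in the count table. All 10 passed the filter on low counts, which left 17474 genes to be tested.

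FGFs are secreted proteins that bind tyrosine kinase receptors on neighboring cells together with heparan sulfate chains. The bound receptor phosphorylates docking proteins and turns on the RAS and ERK kinase cascade, which in turn induces its own inhibitors of the Sprouty, Spred and dual-specificity phosphatase families. In the uterus, stromal FGFs are known as paracrine signals to the overlying epithelium around the time of embryo attachment.

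Primary uterine stromal cells were taken on day 4 of pseudopregnancy from females 8 to 12 weeks of age, with 3 libraries per genotype. The controls, labelled WT, are described in the study as Pbrm1 fl/fl littermates without Cre. In the conditional knockout (Pbrm1 cKO) both floxed Pbrm1 alleles are recombined by a Cre expressed from the progesterone receptor locus, so deletion is limited to cells that use this locus and includes epithelium as well as stroma. Each preparation pooled 5 to 10 uterine horns and the cells were plated for 4 h and a further 2 h in changed medium before lysis. The study calls the 3 replicates of a genotype biological, but whether they came from separate groups of animals is not stated in the labels. The p-values therefore measure the spread between these libraries.

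Total counts per library were 13253575 to 13865030 in WT and 14844169 to 18338667 in Pbrm1 cKO. A count of 0 allows up to 3 counts, or 0.164 to 0.226 CPM (counts scaled by library total), and these limits cover counting error only. Pbrm1, the deleted gene, fell to 29.6% of WT (log2 fold change -1.76, SE 0.13, adjusted p = 5.19e-40). The biological coefficient of variation was 0.16 among WT and 0.0465 among Pbrm1 cKO libraries. All 14 genes of the stromal marker list had counts, at a summed level of 9229 to 10787 CPM in WT and 7330 to 7841 CPM in Pbrm1 cKO, and 8 of them were lower and 1 higher. Of 16 leukocyte markers, 13 of the 14 tested were higher in Pbrm1 cKO, and their sum was 287 to 626 CPM in WT and 2612 to 2748 CPM in Pbrm1 cKO. Cd74, the invariant chain of MHC class II, had a log2 fold change of 3.05. Cd3g, a chain of the T cell receptor complex, had 3, 1 and 2 counts in WT against 25, 40 and 30 in Pbrm1 cKO (adjusted p = 7.57e-06). The cytotoxic cell marker Gzma had at most 1 count in any library of either genotype. Epithelial markers summed to 135 to 241 and 269 to 282 CPM, endothelial markers to 130 to 369 and 128 to 140 CPM, smooth muscle markers to 3848 to 4167 and 3682 to 3817 CPM, and mesothelial markers to 43.7 to 47.4 and 65.1 to 68.9 CPM in WT and Pbrm1 cKO, respectively. Of the markers tested, 5 of 17 epithelial genes were higher and none lower (Ltf, log2 fold change 2.84), 1 of 12 endothelial genes was higher (Vwf, 1.90) and 4 lower (Cdh5, -1.89), 5 of 11 smooth muscle genes were lower and none higher (Mylk, -2.04), and 1 of 6 mesothelial genes was higher and none lower (Krt19, 1.38, which the epithelial list also holds). WT replicate 1 had the lowest leukocyte, epithelial and endothelial sums of the WT libraries. The part of these cell types in the FGF results was not tested, and in bulk RNA fewer cells of a type and less RNA per cell cannot be told apart.

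Of the 10 FGF genes, 3 were higher in Pbrm1 cKO (Fgf7, Fgf18 and Fgfr1), 3 were lower (Fgf10, Fgfr3 and Fgfrl1) and 4 did not pass (Fgf1, Fgf2, Fgf9 and Fgfr2). Over all 17474 genes tested, 31.1% passed at an adjusted p of 0.05, with 15.9% higher and 15.2% lower. The libraries of the genotypes did not overlap for 7 of the 10, against 48.6% of all tested genes. With that background these counts are no result about the family, and the account below is of its single genes. The median log2 fold change was 0.66 for the ligands, -0.27 for the receptors and -0.00074 for all tested genes. Leaving out 1 library gave 2 to 3 higher and 3 lower. The count of higher genes was 2 without WT replicate 2, Pbrm1 cKO replicate 1 or Pbrm1 cKO replicate 2, where Fgfr1 was the gene lost.

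**Figure D1:**
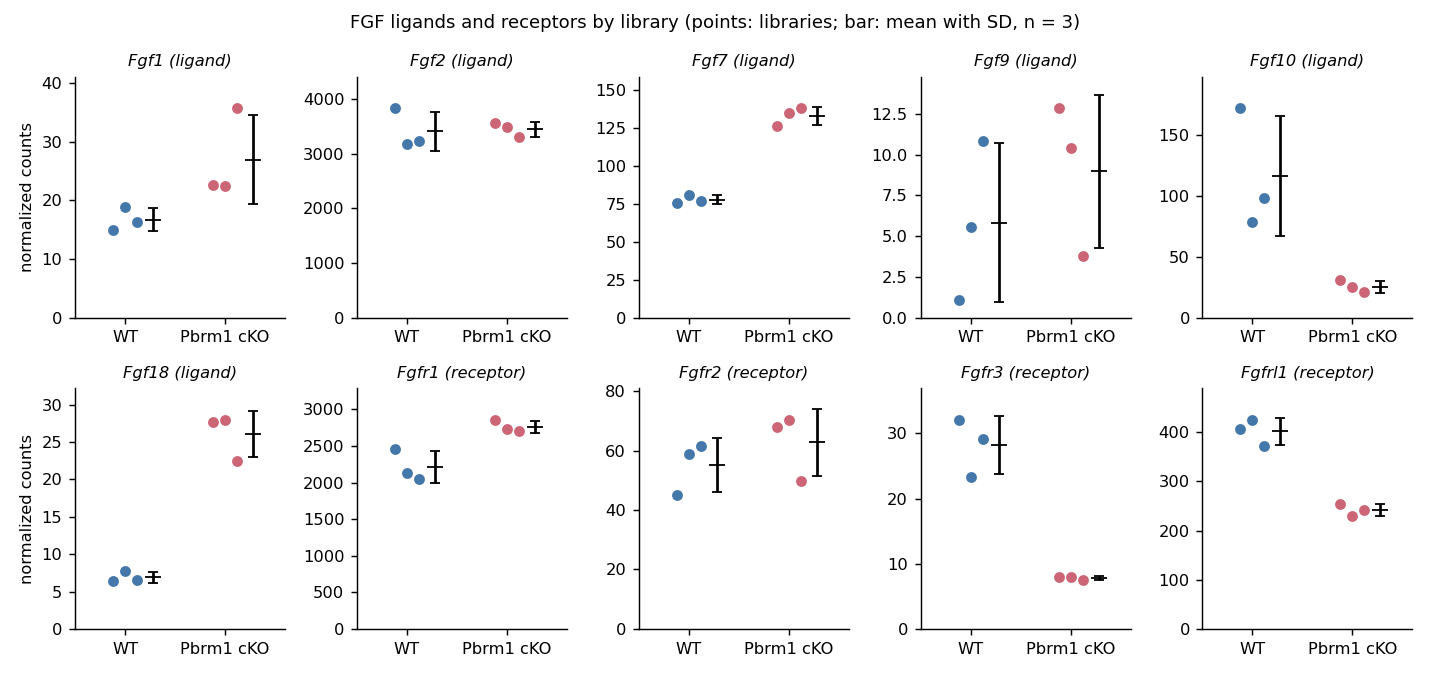
Normalized counts (y axes, each from 0) of the 6 ligands and 4 receptors in the 3 WT libraries (blue points) and the 3 Pbrm1 cKO libraries (red points), with the mean and SD in black. Fgf7 and Fgf18 are higher and Fgf10, Fgfr3 and Fgfrl1 lower in every Pbrm1 cKO library than in any WT library, while Fgf2, Fgf9 and Fgfr2 overlap.

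Promoter sequences are shown for the 3 ligands that passed the test, since they moved in opposite directions. They come from the RefSeq promoter table of GRCm38.p6, from which entries of 8 of the 10 genes were read. Each run is the 250 bases before the RefSeq start, read 5′ to 3′ on the strand of the gene. The positions are chr2:126034408-126034657 on the plus strand for Fgf7, chr13:118714449-118714698 on the plus strand for Fgf10 and chr11:33147401-33147650 on the minus strand for Fgf18. Capitals mark the E-box CANNTG, the motif bound by basic helix-loop-helix factors, which reads as CANNTG on either strand.
Fgf7: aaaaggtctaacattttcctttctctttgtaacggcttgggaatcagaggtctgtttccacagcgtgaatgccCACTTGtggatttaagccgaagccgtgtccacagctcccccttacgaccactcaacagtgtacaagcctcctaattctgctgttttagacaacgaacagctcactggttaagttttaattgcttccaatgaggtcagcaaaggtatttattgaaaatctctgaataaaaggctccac
Fgf10: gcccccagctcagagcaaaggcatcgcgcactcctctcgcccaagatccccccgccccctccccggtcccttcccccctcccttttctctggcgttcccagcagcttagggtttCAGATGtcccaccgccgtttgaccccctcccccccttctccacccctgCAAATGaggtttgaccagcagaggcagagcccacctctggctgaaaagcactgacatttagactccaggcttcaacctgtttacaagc
Fgf18: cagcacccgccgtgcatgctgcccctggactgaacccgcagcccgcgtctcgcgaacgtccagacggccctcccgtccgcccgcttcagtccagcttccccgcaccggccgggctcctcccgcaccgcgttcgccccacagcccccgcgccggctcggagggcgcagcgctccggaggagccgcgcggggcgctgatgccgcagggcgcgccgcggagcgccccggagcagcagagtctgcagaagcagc

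The Fgf7 promoter held 1 E-box, that of Fgf10 held 2 and that of Fgf18 held 0, where 66.2% of 32851 promoters of this length hold at least 1. The GC box GGGCGG, searched on both strands, occurred 0 times before Fgf7 and 1 time each before Fgf10 and Fgf18, and 32.7% of all promoters hold it. G and C made up 43.6% of the bases before Fgf7, 61.2% before Fgf10 and 77.2% before Fgf18, with a median of 52.4% over all promoters. The motif TATAAA was found in none of the 3, and 12.4% of promoters hold it. Such matches describe the letters of the window and carry no measurement of binding. The RefSeq starts of Fgf7 and Fgf18 are the gene starts of the count table, whereas that of Fgf10 lies 44908 bases inside its gene model there.

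Fgf7 and Fgf10 belong to the same subfamily, are made by mesenchymal cells, and bind the epithelial (IIIb) splice form of Fgfr2. Fgf10, which is needed for the outgrowth of many epithelial organs, was the most strongly reduced of the 10 genes. It had 172, 78.8 and 98.4 normalized counts in WT replicates 1 to 3 against 30.6, 24.8 and 20.6 in Pbrm1 cKO. The highest Pbrm1 cKO library was far below the lowest WT library, and the spread among WT came from the high WT replicate 1. The mean fell from 116 ± 49.2 to 25.3 ± 4.99 (SD, n = 3 each), or 21.8% of WT (log2 fold change -2.20, 95% interval -2.90 to -1.51, DESeq2 adjusted p = 1.02e-08). Without WT replicate 1 the log2 fold change was -1.81 with an adjusted p of 2.75e-06. The gene lies at chr13:118669791-118792115 of GRCm38, and its antisense neighbor Gm16263 had at most 3 counts in any library.

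Fgf7, also called keratinocyte growth factor, moved the other way. It had 75.9, 81.0 and 76.7 normalized counts in WT against 126, 135 and 138 in Pbrm1 cKO. The libraries of each genotype lay close together, and the genotypes did not overlap. The mean rose from 77.9 ± 2.75 to 133 ± 6.06, a 1.71-fold difference (95% interval 1.29 to 2.26, log2 fold change 0.77, SE 0.21, adjusted p = 0.00105). Fgf7 lies at chr2:126034658-126091185.

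Levels of different genes were compared per length, as CPM divided by exon length in kb. In WT, Fgf10 stood at 1.71 ± 0.717 and Fgf7 at 1.62 ± 0.0631, and their ranges overlapped. In Pbrm1 cKO, Fgf10 stood at 0.377 ± 0.0722 and Fgf7 at 2.81 ± 0.144. The log2 ratio of Fgf7 to Fgf10 within a library, which needs no scaling between libraries, was -0.68, 0.54 and 0.14 in WT and 2.55, 2.95 and 3.24 in Pbrm1 cKO. All 3 Pbrm1 cKO libraries thus held more Fgf7 than Fgf10, while WT replicate 1 had more Fgf10 and the other WT libraries slightly more Fgf7. The difference was 2.91 on the log2 scale (exact permutation test over 6 libraries, two-sided p = 0.1, the smallest that 3 against 3 can give). The summed per-length level of both ligands was 3.34 ± 0.668 in WT and 3.19 ± 0.0722 in Pbrm1 cKO. As a linear ratio, Fgf7 to Fgf10 stood at 1.06 ± 0.418 in WT and 7.68 ± 1.81 in Pbrm1 cKO.

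**Figure D2:**
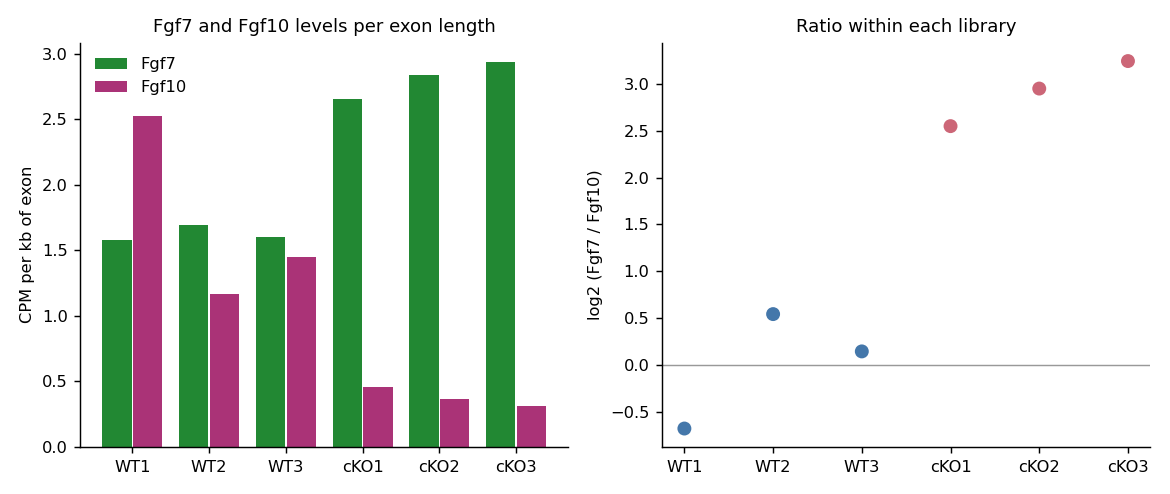
Left, Fgf7 (green) and Fgf10 (purple) in CPM per kb of exon in each library. Right, the log2 ratio of Fgf7 to Fgf10 within each library, which lies between -0.68 and 0.54 in WT (blue) and between 2.55 and 3.24 in Pbrm1 cKO (red).

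Fgf18, a ligand of skeletal development that binds IIIc receptor forms including that of Fgfr3, showed the largest rise of the set from a low base. Its raw counts were 6, 7 and 6 in WT against 28, 35 and 24 in Pbrm1 cKO. Every Pbrm1 cKO library was above every WT library. The normalized mean rose from 6.89 ± 0.76 to 26.0 ± 3.05, or 3.78-fold (95% interval 1.82 to 7.86, log2 fold change 1.92, adjusted p = 0.00203). At these counts, the counting (Poisson) error alone is 39.7% of a single WT value, larger than the 11.1% spread observed, and the interval is correspondingly wide. Fgf18 lies at chr11:33117430-33147400. Its close neighbor Npm1, an abundant nucleolar protein gene 4.887 kb away, differed by -0.20 on the log2 scale (adjusted p = 0.0471).

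Fgf2, the basic FGF that is stored on matrix heparan sulfate, was the most abundant ligand. It had 3827, 3173 and 3223 normalized counts in WT against 3556, 3489 and 3297 in Pbrm1 cKO. The genotypes overlapped, and the log2 fold change was 0.02 with a 95% interval of -0.19 to 0.22 (adjusted p = 0.933), which as a ratio is 0.878 to 1.17. Fgf2 lies at chr3:37348346-37410108. Fgf2os, a noncoding gene on its opposite strand, passed as higher (adjusted p = 0.000984), with 73.4 ± 12.9 normalized counts for WT and 132 ± 9.98 for Pbrm1 cKO, or 0.85 on the log2 scale. Counting used strand, so the reads of the pair were kept apart.

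Fgf1, the acidic FGF that binds all receptor forms, had raw counts of 14, 17 and 15 in WT against 23, 28 and 38 in Pbrm1 cKO. The normalized counts were 16.7 ± 1.99 and 26.9 ± 7.58. All 3 Pbrm1 cKO libraries were above WT, but the log2 fold change of 0.69 (95% interval -0.19 to 1.57) did not pass (adjusted p = 0.262). With 1 library left out it ranged from 0.44 (Pbrm1 cKO replicate 3 omitted) to 0.81 (Pbrm1 cKO replicate 2 omitted). Fgf9 had raw counts of 1, 5 and 10 in WT against 13, 13 and 4 in Pbrm1 cKO. The libraries overlapped (log2 fold change 0.63, adjusted p = 0.662). With 1 library left out it ranged from 0.13 (WT replicate 1 omitted) to 1.45 (WT replicate 3 omitted). The interval of the ratio, 0.466 to 5.15, was wide. The spread between libraries was 83.9% of the mean in WT and 52.2% in Pbrm1 cKO, above the counting error of 43.3% and 31.6%.

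Per exon length, the WT order of ligands was Fgf2 (34.0 ± 3.51 CPM per kb), Fgf10, Fgf7, Fgf18 (0.393 ± 0.0449), Fgf1 (0.243 ± 0.03) and Fgf9 (0.0847 ± 0.071). Neighbors in this order had separate ranges other than Fgf10 and Fgf7. In Pbrm1 cKO the order was Fgf2 (34.9 ± 1.10), Fgf7, Fgf18 (1.50 ± 0.165), Fgf1 (0.398 ± 0.116), Fgf10 and Fgf9 (0.132 ± 0.0685), and here Fgf1 and Fgf10 overlapped. The place of Fgf10 above Fgf7 in WT rested on replicate 1 (2.52 against 1.58 CPM per kb), since Fgf10 was the lower of the pair in replicates 2 (1.16 CPM per kb) and 3 (1.45 CPM per kb). Fgf2 made up 89.4% ± 0.332 of the summed ligand level in WT and 87.0% ± 0.281 in Pbrm1 cKO. The other 5 ligands together stood at 4.06 ± 0.56 CPM per kb in WT (3.66 to 4.70) and at 5.22 ± 0.0717 in Pbrm1 cKO (5.15 to 5.29), values that were not tested.

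**Figure D3:**
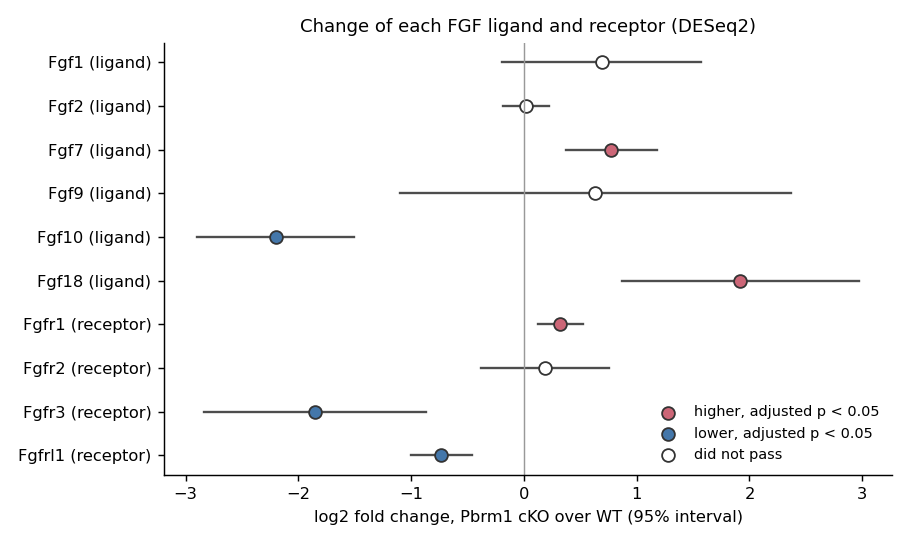
Log2 fold change of Pbrm1 cKO over WT (x axis) with its 95% interval for each of the 10 genes (y axis), from DESeq2 over 3 libraries per genotype. Red and blue points passed an adjusted p of 0.05 as higher and lower, and open points did not pass; the interval of Fgf9 is the widest and that of Fgfr1 among the narrowest.

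Among the receptors, Fgfr1 encodes an FGF receptor tyrosine kinase of mesenchymal cells. It had 2456, 2133 and 2043 normalized counts in WT against 2856, 2726 and 2702 in Pbrm1 cKO. The genotypes were separate but not far apart, with means of 2211 ± 217 and 2762 ± 82.8, or 1.25-fold (95% interval 1.09 to 1.43, log2 fold change 0.32, SE 0.10, adjusted p = 0.00751). This call was the least firm of the 6. It was lost when the trend of counts with gene length was removed (log2 fold change 0.18, adjusted p = 0.131) and without WT replicate 2 (0.29, adjusted p = 0.0538), Pbrm1 cKO replicate 1 (0.30, 0.0749) or Pbrm1 cKO replicate 2 (0.33, 0.0522). Fgfr1 lies at chr8:25513654-25575718.

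Fgfrl1 encodes a receptor with the extracellular FGF-binding part but no tyrosine kinase domain, often described as a decoy. It had 407, 425 and 372 normalized counts in WT against 254, 230 and 242 in Pbrm1 cKO. No Pbrm1 cKO library came near the WT range. The mean fell from 401 ± 27.1 to 242 ± 11.7, or 60.3% of WT (log2 fold change -0.73, SE 0.14, adjusted p = 1.19e-06). Fgfrl1 lies at chr5:108692382-108706924, and Idua, the lysosomal iduronidase gene 7.825 kb before it on the same strand, moved in the opposite direction (log2 fold change 1.40, adjusted p = 1.28e-07).

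Fgfr3, a receptor known as a brake on growth in cartilage, fell from a low level. Its raw counts were 30, 21 and 27 in WT and 8, 10 and 8 in Pbrm1 cKO. The genotypes did not overlap and the Pbrm1 cKO libraries were almost equal. The normalized mean fell from 28.2 ± 4.46 to 7.80 ± 0.26, or 27.7% of WT (log2 fold change -1.85, 95% interval -2.84 to -0.87, adjusted p = 0.00132). Counting error alone is 34.0% of a single Pbrm1 cKO value. Fgfr3 lies at chr5:33721674-33737068 between Tacc3 (log2 fold change -1.35) and Letm1 (0.54), which also passed and moved in opposite directions to each other.

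Fgfr2, the receptor of Fgf7 and Fgf10 in its IIIb form, had 44.9, 58.8 and 61.6 normalized counts in WT against 68.1, 70.3 and 49.7 in Pbrm1 cKO. The genotypes overlapped (log2 fold change 0.19, 95% interval -0.38 to 0.75, adjusted p = 0.695). With 1 library left out the log2 fold change ranged from 0.06 (WT replicate 1 omitted) to 0.33 (Pbrm1 cKO replicate 3 omitted). It was 0.04 with the length trend removed. Gene counts do not tell the IIIb and IIIc splice forms apart. The gene model in the count table, chr7:130162451-133123350, spans 2.96 Mb because of 2 far exons. These exons hold 314 bases, all shared with another gene of the same strand and 3.04% of the exon length of Fgfr2, and reads in such shared bases are left out of both counts.

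Per length, the WT order of receptors was Fgfr1 (15.2 ± 1.45 CPM per kb), Fgfrl1 (9.77 ± 0.674), Fgfr2 (0.361 ± 0.0597) and Fgfr3 (0.267 ± 0.0413), with Fgfr2 and Fgfr3 overlapping. The Pbrm1 cKO order was the same, at 19.2 ± 0.498, 5.96 ± 0.294, 0.416 ± 0.072 and 0.0747 ± 0.00187, and all neighbors were apart. The summed receptor level was 25.6 ± 1.76 in WT and 25.6 ± 0.769 in Pbrm1 cKO. Fgfr1 took 61.6%, 57.2% and 59.0% of that sum in WT and 74.5%, 75.3% and 74.7% in Pbrm1 cKO. Fgfrl1 took 36.2%, 40.4% and 38.1% in WT and 23.5%, 22.6% and 23.7% in Pbrm1 cKO. The share of Fgfr1 differed by 15.6 percentage points and that of Fgfrl1 by -15.0, or by 7.89 and -7.06 when raw counts were not divided by length. The share of Fgfr3 went from 1.04% ± 0.161 to 0.292% ± 0.0112, and that of Fgfr2 from 1.43% ± 0.32 to 1.62% ± 0.279. For Fgfr1, Fgfrl1 and Fgfr3 the exact permutation test gave p = 0.1, the smallest possible (0.133 after adjustment over the 4 shares), and for Fgfr2 it gave 0.6. Shares of 1 sum are tied to each other, so these are not 4 separate results.

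**Figure D4:**
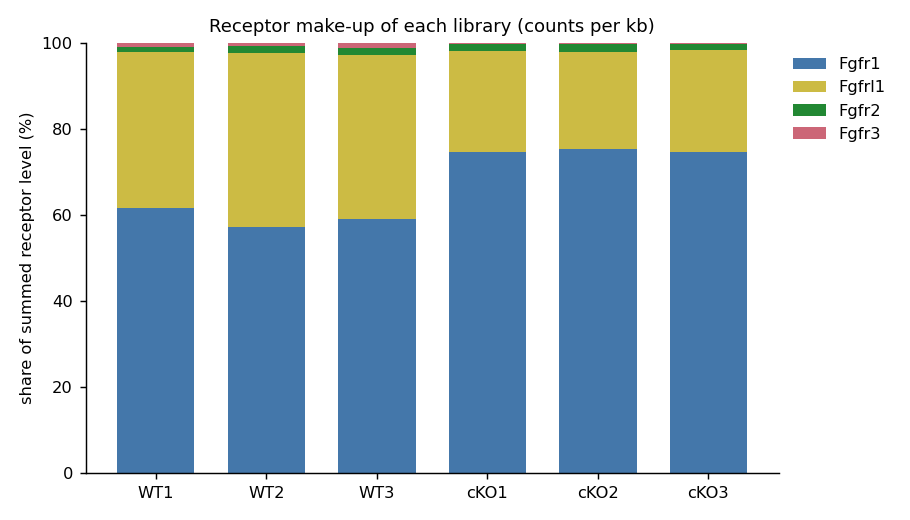
Share (y axis, percent) of Fgfr1, Fgfrl1, Fgfr2 and Fgfr3 in the summed receptor level of each library (x axis), from counts per kb of exon. Fgfr1 takes 57.2% to 61.6% in the WT libraries and 74.5% to 75.3% in the Pbrm1 cKO libraries, and the Fgfrl1 share is lower in each Pbrm1 cKO library than in any WT library.

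Of 17 other ligands and receptors, 7 had no count in any library, 10, those included, had at most 3 counts in every library, and 4 passed the filter. DESeq2 called 0 of the 4 higher, as did edgeR and limma, and 0 had an unadjusted p under 0.05 in that direction. Fgf17, Fgf21 and Fgf16 are named here after their values were seen. The study reports Fgf1, Fgf7, Fgf16, Fgf17, Fgf18 and Fgf21 as more abundant without Pbrm1, by RNA-seq at its own thresholds and by qPCR. It also reports stronger staining of the proteins FGF1, FGF17 and FGF18. In WT the raw counts were 2, 2 and 1 for Fgf17 and 2, 0 and 0 for Fgf21, against 8, 6 and 3 and 4, 5 and 7 in Pbrm1 cKO. These 2 genes had every Pbrm1 cKO library above WT but did not pass (adjusted p = 0.344 and 0.166). Fgf16, with 0, 0 and 1 against 3, 1 and 8, was too low to be tested. Fgf12, an intracellular FGF homolog, was called lower with 9, 43 and 41 counts in WT against 13, 13 and 7 in Pbrm1 cKO (log2 fold change -1.77, adjusted p = 0.0158). The libraries overlapped, and the call was lost without WT replicate 2 or 3 or Pbrm1 cKO replicate 2 or 3.

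A list of 33 genes held heparan sulfate proteoglycans, the enzymes that build, modify or cleave heparan sulfate, Klotho-type proteins and FGF-binding proteins. It also held membrane and adhesion proteins such as Flrt2 and Nrcam. Of the 29 tested, 8 were higher and 4 lower in Pbrm1 cKO (41.4% called, against 31.1% of all tested genes), and the median log2 fold change was 0.11. Agrn (agrin, a basement membrane proteoglycan, 1.03), Flrt2 (a membrane protein with a fibronectin domain, 0.87), Sdc3 (syndecan-3, 0.71) and Ndst1 (a heparan sulfate sulfotransferase, 0.54) had the largest rises among the called genes. Nrcam (a neural adhesion molecule, -2.28), Sdc2 (syndecan-2, -1.29), Gpc6 (glypican-6, -1.20) and Sdc4 (syndecan-4, -0.29) were the 4 that fell, although the libraries overlapped for Sdc4. Sdc2 fell from 2160 ± 517 to 886 ± 55.8 normalized counts, and Sdc3 rose from 938 ± 86.2 to 1535 ± 91.2.

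Of 25 adaptors and kinases that relay the receptor signal, 7 were higher and 3 lower (40.0% called, against 31.1% of all tested genes), with a median log2 fold change of 0.10. Grb2 (the adaptor that recruits SOS, 1.16), Gab2 (a docking protein, 0.93), Mapk3 (ERK1, 0.92) and Braf (a RAF kinase, 0.38) had the largest rises among the called genes. Hras (a RAS GTPase, -0.50) and Shc1 (an adaptor, -0.39) were among those that fell. The count of higher genes was 3 without Pbrm1 cKO replicate 1 and 3 without Pbrm1 cKO replicate 2, and 8 without WT replicate 1. Grb2 varied among the WT libraries, with 131, 186 and 391 raw counts, and less among those of Pbrm1 cKO, with 591, 709 and 603.

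Of 14 genes known to be induced by FGF and ERK signaling, all tested, 7 were higher in Pbrm1 cKO (against 15.9% of all tested genes) and DESeq2 called 0 lower (0 also by edgeR, by limma and at an unadjusted p under 0.05). The median log2 fold change was 0.41, and their summed level was 546 to 608 CPM in WT and 1038 to 1114 CPM in Pbrm1 cKO. The phosphatases Dusp5 (1.80) and Dusp4 (1.19), the transcription factor Egr1 (1.29) and the Sprouty gene Spry2 (1.23) had the largest rises among the called genes. Dusp5 rose from 1036 ± 54.2 to 3596 ± 161 normalized counts. The other 7 of the list did not pass, with log2 fold changes between -0.18 and 0.22. They were Dusp6 (-0.12), Etv1 (-0.18), Etv4 (0.22), Etv5 (-0.08), Il17rd (0.11), Spred1 (0.21) and Spred3 (0.19). The leukocyte marker sum moved the same way, at 287 to 626 against 2612 to 2748 CPM, and its part in this result was not tested.

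**Figure D5:**
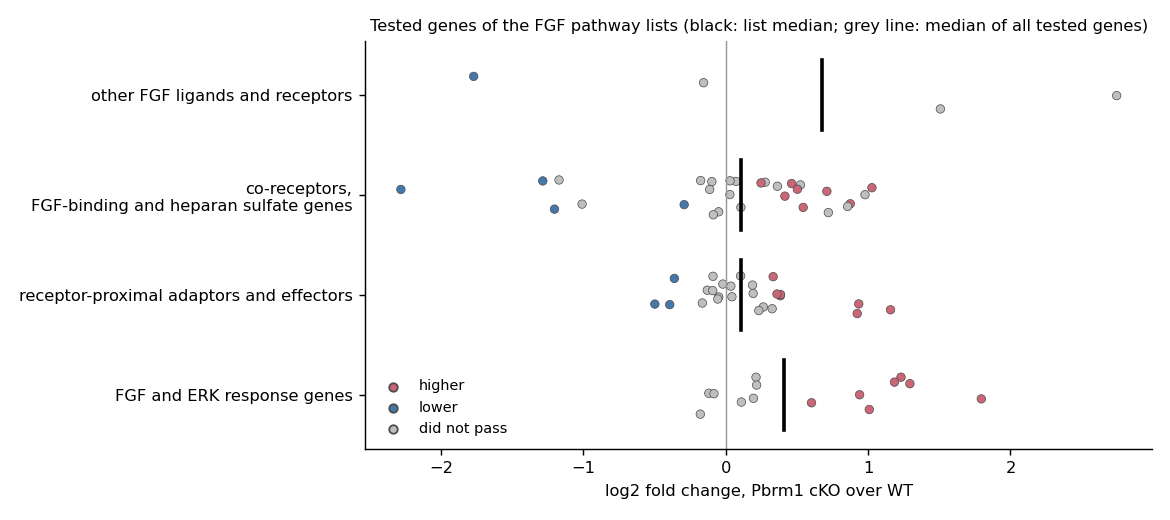
Log2 fold change of Pbrm1 cKO over WT (x axis) of each tested gene in 4 FGF pathway lists (y axis), with genes called higher in red, called lower in blue and not passed in grey. Black bars mark the list medians of 0.68, 0.11, 0.10 and 0.41 from top to bottom, and the grey line marks the median of all tested genes at -0.00074.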

How the data were processed

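Single-end reads were trimmed with cutadapt, mapped with HISAT2 and assigned to genes of GENCODE mouse release 18 on GRCm38 with featureCounts 1.6.4 in reverse-stranded mode by the authors, who deposited 1 table of raw counts per gene and library, with no normalization. The labels describe a total RNA kit with transcript depletion, whereas the methods of the study describe poly(A) selection, so the RNA classes captured are not settled. Symbols were found for 99.7% of identifiers.

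Differential expression over the whole table used DESeq2 (version 1.42.0, R version 4.3.3; Wald test, 3 WT and 3 Pbrm1 cKO libraries, no covariates, unshrunken log2 fold changes, Benjamini-Hochberg adjustment over all tested genes, threshold 0.05). Intervals are the estimate ± 1.96 SE. Single values are DESeq2 normalized counts. Adjusted p-values are from DESeq2 unless stated. Per-length levels are CPM divided by exon length in kb. Ratios and shares within a library were compared by exact permutation. A genotype whose libraries all had 3 counts or fewer was taken as at the floor.

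Alternatives were edgeR 4.0.16 (quasi-likelihood), limma 3.58.1 (voom with a spread per group), TMM scaling, a filter of 10 counts in 3 libraries, no independent filtering, removal of the length trend, a test against a log2 difference of 0.58 either way (adjusted p threshold 0.1), a replicate block and leaving out each library. The genes named are the members, Pbrm1, overlapping genes and nearest neighbors, up to 4 called genes per direction of a pathway list and up to 2 genes of a marker list. Cd3g, Fgf16, Fgf17, Fgf21 and the FGF and ERK response genes that did not pass fall outside this rule and were named after their values were seen. The members and lists were chosen with earlier results of these data known. A gene that this rule would name is left out of the text.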

Additional observations from a re-analysis of the deposited data

How the results depend on the processing

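The calls of Fgf7, Fgf10, Fgf18, Fgfr3 and Fgfrl1 held under every alternative other than the test against 0.58, run at an adjusted p of 0.1, under which Fgf10 alone was called. Under it Fgf7 (0.77), Fgf18 (1.92), Fgfr1 (0.32), Fgfr3 (-1.85) and Fgfrl1 (-0.73) no longer passed, with 0 members higher and 1 lower, 1 higher and 2 lower co-receptor and heparan sulfate genes, 0 higher and 0 lower adaptors, and 0 lower other FGF genes, beside 699 higher and 563 lower of all 19134 genes tested. Fgfr1 did not pass with the length trend removed (0.18) and ranged from 0.26 to 0.40 when 1 library was left out. Fgf2 changed sign with the length trend removed (-0.067) and ranged from -0.036 to 0.11 with 1 library left out. The lower call of Fgf12 was lost with limma (0 lower), in the replicate block (0 lower) and in leave-outs (0 to 1). Leave-outs gave 3 to 8 higher adaptors. Without division by exon length, the share differences were 7.89 points for Fgfr1, -7.06 for Fgfrl1 and -0.034 for Fgfr2. The cause was not tested.

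Same-numbered WT and Pbrm1 cKO libraries did not deviate together (correlations 0.036, -0.035 and -0.00095). Such correlations cannot tell whether same-numbered preparations were made together. In the replicate block, 3 members were higher and 3 lower, and Fgf10 stood at -2.14. Counts under about 30 per library (Fgf9, Fgf18, Fgfr3 and Fgf1 in WT) limit precision most.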

Other observations

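Genes next to the FGF members were read from the same fit, as the nearest gene with a mean of at least 10 normalized counts on each side. For Fgfr2 the sides lay outside its 2.96 Mb gene model, so expressed genes within that span were not counted as flanking. Of 20 such flanking genes, 5 were higher and 5 lower in Pbrm1 cKO, where 15.9% and 15.2% of all tested genes were. For the 6 members that passed, 5 of 12 flanking genes passed (against 31.1% of all tested genes) and 1 of them moved in the direction of its member: Tacc3, a mitotic spindle protein gene next to Fgfr3 (log2 fold change -1.35, adjusted p = 3.05e-07). Both flanking genes of Fgf10, the mitochondrial ribosome gene Mrps30 (-0.27, adjusted p = 0.0665) and the translation factor gene Paip1 (-0.21, adjusted p = 0.0743), did not pass; they lie 283 kb and 636 kb away. Galk2, a galactokinase gene 50.4 kb from Fgf7, fell (-0.55, adjusted p = 0.000104) while Fgf7 rose, and Dtwd1 on the other side stood at -0.04 (adjusted p = 0.915). Spry4, a Sprouty inhibitor gene and the nearest such neighbor of Fgf1 on 1 side, rose from 757 ± 111 to 1523 ± 78.9 normalized counts (1.01 on the log2 scale, adjusted p = 6.43e-14).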
